A study of Rattus norvegicus with 6 samples.

Results

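Genes of the inflammatory response were followed in mesenchymal stromal cells of rat bone marrow. The set holds the cytokines Il6 and Il1b, the chemokines Ccl2 and Cxcl1, the enzymes Ptgs2 and Nos2, and the adhesion molecules Icam1 and Vcam1. They were chosen by Ensembl identifier, as common targets of the transcription factor NF-kB. Of the 8 identifiers, 7 had a row among the 30452 genes of the count table, and Nos2 (ENSRNOG00000011023) was not analysed here. The cells were labelled wild type and had been cultured for osteogenic differentiation in vitro. A control group (n = 3) was left blank, and a second group (n = 3) was grown together with a hydrogel labelled AAT-ZCG, which carries linked enzymes and was designed for diabetic bone defects. What the letters stand for is not stated. The age and strain of the animals, the culture time and the amount of hydrogel are not given in the sources used here. No label says that libraries of a group came from separate animals or cultures, so p-values measure only the spread between these libraries, which may be technical.

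NF-kB is a family of transcription factors held in the cytoplasm by inhibitor proteins. Signals such as interleukin 1, tumour necrosis factor or bacterial products release it, and it then enters the nucleus and switches on cytokine, chemokine and adhesion genes. Stromal cells of the marrow are a known source of Ccl2 and Il6, which act on monocytes and on bone turnover. Prostaglandins made through Ptgs2 take part in bone formation and repair.

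The libraries held from 30601703 to 93728651 counts, and library 2 was the deepest in both groups. The first principal component of log2 CPM (counts per 1000000), with 57.7% of the variance, placed the controls between -33.8 and -31.1 and the hydrogel libraries at 46.3, 21.1 and 30.8, so that hydrogel library 1 lay farthest from the controls. The labelled cell type was not checked against marker genes, which need gene names. In bulk RNA, fewer cells that express a gene and less RNA per cell cannot be told apart.

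The deposited tables give identifiers only, and the names are those that came with the choice of the genes. As a check of each row, the gene length implied by its count, its FPKM (fragments per kilobase of gene, scaled to the library total) and the library total was computed. For all 7 genes it came within 0.01 bp of 1 whole number in every library with a count. The length was 2198 bp for Il6, 1868 bp for Il1b, 784 bp for Ccl2, 1004 bp for Cxcl1, 4381 bp for Ptgs2, 2630 bp for Icam1 and 3580 bp for Vcam1. Each length was shared with between 1 and 6 other genes of the 21162 with a count. The lengths thus tie the count and FPKM rows to 1 gene model each but do not by themselves prove a name.

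With hydrogel, Cxcl1 rose 2.95-fold, Ccl2 rose 1.23-fold and Ptgs2 fell to 0.56 of its control level. Il6 and Icam1 did not pass the test, and Il1b and Vcam1 had too few reads to enter it. Of the 5 genes tested, 2 were called higher and 1 lower by edgeR's quasi-likelihood test (Benjamini-Hochberg adjusted p below 0.05 over 14715 genes). In the whole table, 34.5% of tested genes were called, 17.5% higher and 17.1% lower. Of the 5, 1 was called with a change over 2-fold, Cxcl1, against 5.73% of all tested genes (3.61% higher and 2.12% lower). With an unadjusted p and the same fold limit, the threshold worded in the series' design text, it was again Cxcl1 alone, against 6.62% of all tested genes. The hydrogel and control libraries did not overlap for 3 of the 5, against 47.3% of all tested genes. The median log2 fold change of the 5 was 0.30, and that of all tested genes was 0.0021. With 5 genes, these counts describe the genes named and do not set the list apart from the rest of the table.

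**Figure D1:**
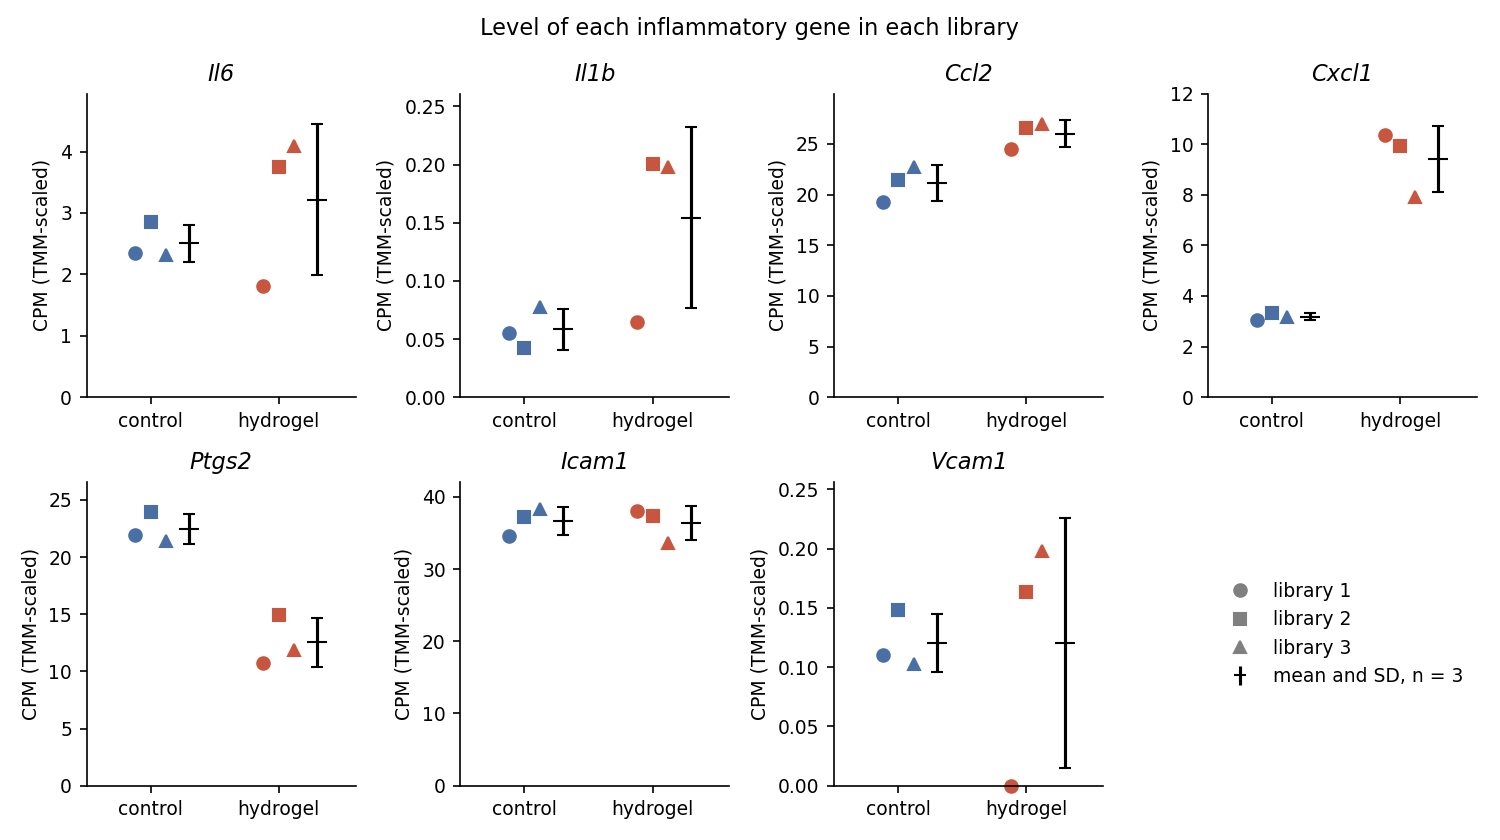
CPM of the 7 measured genes in each library, with linear axes from 0; circles, squares and triangles are libraries 1, 2 and 3 of a group, and the black bars give the mean and SD (n = 3). The Cxcl1 and Ccl2 points with hydrogel lie above all controls and the Ptgs2 points below them, while Il6, Il1b, Icam1 and Vcam1 overlap.

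The chemokines were followed first. Cxcl1 (ENSRNOG00000002802) encodes a CXC chemokine that attracts neutrophils. Its raw counts were 110, 314 and 124 in control libraries 1 to 3, and 322, 792 and 240 in hydrogel libraries 1 to 3. Per 1000000 counts these were 3.04, 3.33 and 3.19 CPM in the controls and 10.4, 9.95 and 7.91 CPM with hydrogel. All 3 hydrogel libraries stood well above every control, and library 3 was the lowest of them. The mean increased from 3.19 ± 0.14 to 9.41 ± 1.32 CPM (SD, n = 3), with a log2 fold change of 1.56 (SE 0.15, 95% interval 1.24 to 1.88, edgeR adjusted p = 8.38e-07). Only 1.71% of all tested genes had a higher log2 fold change. The controls varied by 4.49% (coefficient of variation), which is below the 8.23% that counting error alone would give, and the hydrogel libraries by 14.0%, against 5.33% from counting. The rise was present at both depths. It was 2.99-fold in the deep pair of libraries, numbered 2, and 1.55 on the log2 scale in libraries 1 and 3 alone (edgeR adjusted p = 2.54e-04). Cxcl1 has close relatives in the genome, and whether reads were shared with them was not tested.

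Ccl2 (ENSRNOG00000007159) encodes the chemokine that draws monocytes out of the blood. It was measured at 19.3, 21.4 and 22.8 CPM in the controls and at 24.5, 26.5 and 27.0 CPM with hydrogel. The groups did not overlap, but the gap between the highest control and the lowest hydrogel library was small. The mean increased from 21.2 ± 1.77 to 26.0 ± 1.34 CPM (SD, n = 3), with a log2 fold change of 0.30 (SE 0.079, 95% interval 0.13 to 0.47, edgeR adjusted p = 0.00786). A change of this size was common, as 20.6% of all tested genes had a higher log2 fold change. The call was lost when only libraries 1 and 3 of each group were used, with a similar log2 fold change of 0.29 (edgeR adjusted p = 0.0865), and in a limma fit on log2(FPKM + 1) with no filter (0.27, adjusted p = 0.104).

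The 2 chemokines therefore moved by different amounts. Reads of Cxcl1 per 100 reads of Ccl2, a ratio within a library that needs no scaling, were 15.8, 15.5 and 14.0 in the controls and 42.4, 37.5 and 29.3 with hydrogel. The ratio was 2.41-fold higher with hydrogel and the groups did not overlap (exact two-sided permutation p = 0.1, the smallest that 3 against 3 libraries allow, and 0.1 after adjustment over 4 ratios). The ratios were chosen after their values were seen, which the adjustment does not cover. By the likeness of their profile over the 6 libraries, the genes nearest to Ccl2 were ENSRNOG00000014689, with a mean of 54.9 CPM in controls and 68.2 CPM with hydrogel, and ENSRNOG00000032487, with 11.2 and 14.0 CPM. Their Euclidean distances from Ccl2 in centred log2 CPM were 0.046 and 0.065.

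Among the cytokines, Il6 (ENSRNOG00000010278) encodes interleukin 6, which acts on immune cells and on osteoclast formation. Its counts were 85, 269 and 90 in the controls and 56, 299 and 124 with hydrogel. Per 1000000 counts these were 2.35, 2.85 and 2.31 CPM in the controls and 1.81, 3.75 and 4.09 CPM with hydrogel. Hydrogel library 1 was the lowest of all 6 libraries and the other two hydrogel libraries were the highest, so the groups overlapped. The hydrogel libraries differed among themselves by 2.26-fold, and their coefficient of variation of 38.3% was well above the 9.88% that counting error gives. The mean was 2.50 ± 0.30 CPM in controls and 3.22 ± 1.23 CPM with hydrogel (SD, n = 3), and the log2 fold change of 0.36 did not pass the test (SE 0.26, 95% interval -0.19 to 0.91, edgeR adjusted p = 0.308). The estimate varied with the library left out. Without hydrogel library 1, the log2 fold change was 0.62 and Il6 was called (edgeR adjusted p = 0.0296). Without hydrogel library 2 or 3 instead, it was 0.22 or 0.18 and Il6 was not called (edgeR adjusted p = 0.634 and 0.676). Of the 19 alternatives run on Il6, it was called only in the 1 without hydrogel library 1.

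Il1b (ENSRNOG00000004649) encodes interleukin 1 beta, itself an activator of NF-kB and a product mainly of macrophages. It was at the edge of detection. The raw counts were 2, 4 and 3 in the controls and 2, 16 and 6 with hydrogel. Summed over a group, there were 9 reads in controls, or 0.0535 per 1000000 counts (95% exact Poisson interval 0.0245 to 0.102), and 24 with hydrogel, or 0.168 (0.108 to 0.251). These intervals cover counting error only. Hydrogel library 1, with 2 reads, lay within the control range, and the other reads came from hydrogel libraries 2 and 3. Fitted without the low-count filter, the log2 fold change was 1.42 with an interval that included 0 (-1.02 to 3.87, edgeR adjusted p = 0.468). That fit treated the spread differently from the main one. It gave Cxcl1 an edgeR adjusted p of 9.56e-21, against 8.38e-07 in the main fit. Its intervals may be too narrow and are not comparable with those of the tested genes. As for Il6, hydrogel library 1 was the low one of its group.

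Ptgs2 (ENSRNOG00000002525) encodes cyclooxygenase 2, the inducible enzyme at the start of prostaglandin synthesis, and it was the 1 gene of the set that fell. Its counts were 794, 2257 and 834 in the controls and 334, 1190 and 360 with hydrogel. Per 1000000 counts these were 21.95, 23.9 and 21.4 CPM in the controls and 10.8, 14.9 and 11.9 CPM with hydrogel. Every hydrogel library lay below every control, library 1 the lowest and the deep library 2 the highest of its group. The mean decreased from 22.4 ± 1.31 to 12.5 ± 2.17 CPM (SD, n = 3), with a log2 fold change of -0.82 (SE 0.11, 95% interval -1.05 to -0.59, edgeR adjusted p = 2.17e-05). The fitted decrease was 1.77-fold, short of the 2-fold limit in the series' design text, and its interval included that limit. Of all tested genes, 3.68% had a lower log2 fold change. The hydrogel level was 0.625 of the control level in the deep pair, and the log2 fold change was -0.94 in libraries 1 and 3 alone (edgeR adjusted p = 1.54e-04).

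Cxcl1 and Ptgs2, both counted as NF-kB targets, thus changed in opposite directions in the same libraries. Reads of Cxcl1 per 100 reads of Ptgs2 were 13.9, 13.9 and 14.9 in the controls and 96.4, 66.6 and 66.7 with hydrogel. The ratio was 5.39-fold higher with hydrogel, with hydrogel library 1 the highest (exact two-sided permutation p = 0.1, the smallest possible, adjusted 0.1 over 4 ratios). Leaving out any 1 library gave 4.69-fold to 5.74-fold. As every hydrogel library was above the controls for Cxcl1 and below them for Ptgs2, this ratio could not overlap between the groups. The pair was chosen after its values were seen, and the adjustment does not cover that choice.

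**Figure D2:**
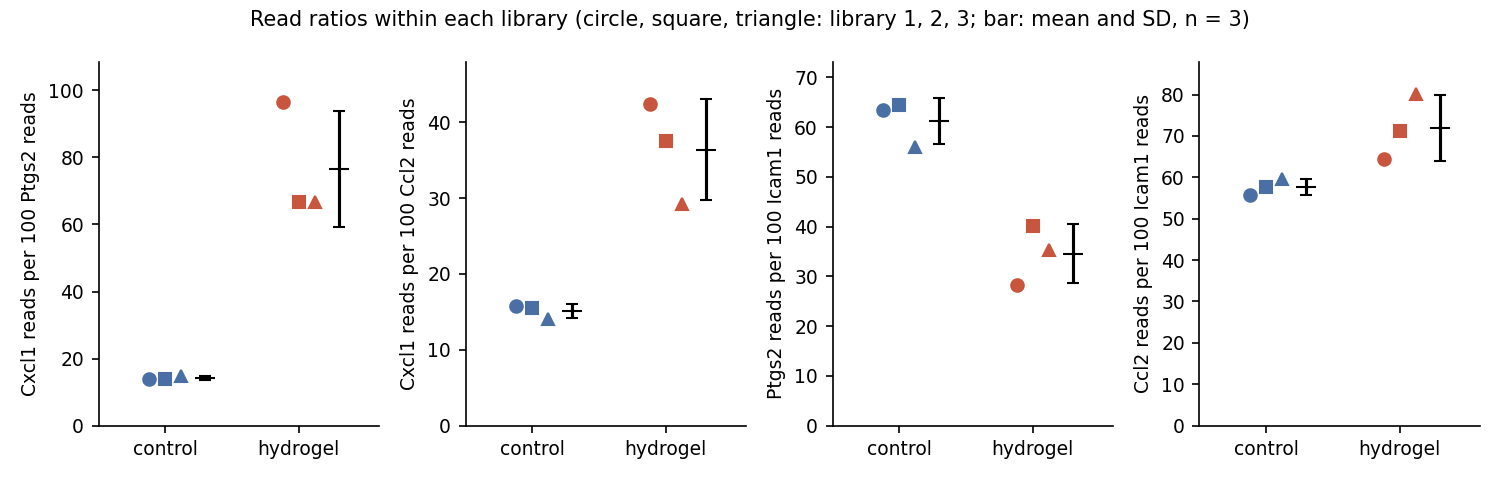
Read ratios of 4 pairs of genes within each library, which do not depend on how libraries are scaled; symbols are libraries 1, 2 and 3 and black bars the mean and SD (n = 3). Cxcl1 gained on Ptgs2 from about 14.2 to 76.5 reads per 100 and on Ccl2 from 15.1 to 36.4. The groups do not overlap in the 4 panels, but the pairs were chosen after their values were seen. The lack of overlap is therefore a description and not a test.

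Promoters are shown for 3 of the genes: Cxcl1, which rose, Ptgs2, which fell, and Il6, which varied between the hydrogel libraries. In the RefSeq promoters used here, 6 of the 8 genes were found by symbol, and none was matched for Ccl2 and Nos2. Each sequence below is the 250 bases before the gene's start in the rat build GRCr8, read 5′ to 3′ on the gene's strand. Capitals mark exact matches to the 10-base NF-kB consensus GGGRNNYYCC, searched on both strands. Here R is A or G, Y is C or T, and N is any base. Cxcl1 lies at chr14:17479322-17479571 on the minus strand, Il6 at chr4:5894576-5894825 on the minus strand and Ptgs2 at chr13:64713813-64714062 on the plus strand.
Cxcl1: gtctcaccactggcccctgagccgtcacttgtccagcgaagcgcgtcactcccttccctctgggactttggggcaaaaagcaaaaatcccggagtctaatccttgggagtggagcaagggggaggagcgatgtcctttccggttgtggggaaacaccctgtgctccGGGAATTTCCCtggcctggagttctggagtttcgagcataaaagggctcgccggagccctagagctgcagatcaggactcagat
Il6: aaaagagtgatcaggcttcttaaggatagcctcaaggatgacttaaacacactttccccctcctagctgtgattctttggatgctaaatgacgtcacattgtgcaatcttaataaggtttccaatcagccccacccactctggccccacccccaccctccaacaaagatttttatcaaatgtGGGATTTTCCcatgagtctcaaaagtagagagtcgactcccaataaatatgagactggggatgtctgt
Ptgs2: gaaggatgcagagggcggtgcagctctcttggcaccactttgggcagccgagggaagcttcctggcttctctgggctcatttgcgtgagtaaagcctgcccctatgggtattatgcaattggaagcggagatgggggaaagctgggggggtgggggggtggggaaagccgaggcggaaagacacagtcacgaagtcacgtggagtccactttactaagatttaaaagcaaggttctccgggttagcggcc

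Counting the base before the start as -1, the Cxcl1 match spans -84 to -75 on the plus strand and overlaps a match on the other strand at -83 to -74. The Il6 match, GGGATTTTCC, spans -68 to -59, and its promoter also holds the palindromic cAMP response element TGACGTCA at -162 to -155. No exact match to either motif was found in the Ptgs2 window. Vcam1 held a match too, GGGATTTCCC at -93 to -84 on both strands, while the windows of Il1b and Icam1 held no exact match. The Icam1 window does hold TGGAAATTCC, which departs from the consensus only at its first base. Such near matches were not searched for in the other windows. Of all 33469 promoters of this length, 6.33% held the NF-kB consensus and 1.59% the cAMP response element. The 3 genes with the consensus were thus one that rose (Cxcl1), one that was not called (Il6) and one near the limit of detection (Vcam1). A match is a description of letters and does not show binding, and sites outside this window were not searched.

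Neither adhesion molecule was called. Icam1 (ENSRNOG00000020679) encodes a surface protein that binds leukocyte integrins, and it had the most reads of the set in all 6 libraries. It was measured at 34.6, 37.2 and 38.3 CPM in the controls and at 38.1, 37.3 and 33.7 CPM with hydrogel. The groups overlapped, with a mean of 36.7 ± 1.91 CPM in controls and 36.4 ± 2.35 CPM with hydrogel (SD, n = 3). The fitted log2 difference of -0.011 (SE 0.067) did not pass the test (edgeR adjusted p = 0.912). Its 95% interval ran from -0.15 to 0.13, so that a change beyond 0.90-fold to 1.09-fold lay outside it.

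Ptgs2 and Ccl2 were also set against Icam1, the gene of the set with the most reads, as ratios that need no scaling. Reads of Ptgs2 per 100 reads of Icam1 were 63.5, 64.3 and 56.0 in the controls and 28.3, 40.0 and 35.2 with hydrogel. Reads of Ccl2 per 100 reads of Icam1 were 55.8, 57.6 and 59.5 in the controls and 64.4, 71.1 and 80.2 with hydrogel. Neither pair of groups overlapped (exact two-sided permutation p = 0.1 for each, the smallest possible), but both ratios were chosen after their values were seen. Such ratios show unequal change and do not show that Icam1 itself stayed level.

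Vcam1 (ENSRNOG00000014333) encodes the adhesion molecule that holds blood-forming cells to marrow stroma, and it was barely detected here. The counts were 4, 14 and 4 in the controls and 0, 13 and 6 with hydrogel. The 0 in hydrogel library 1 allows up to 0.0967 CPM (3 counts of that library), and the controls were measured at 0.103 to 0.148 CPM. The control values come from 4, 14 and 4 reads and carry counting error of their own. This library is therefore not shown to lie below the controls. Summed over a group, the level was 0.131 reads per 1000000 counts in controls (22 reads, 95% exact Poisson interval 0.0820 to 0.198) and 0.133 with hydrogel (19 reads, 0.0803 to 0.208). No difference was detectable at this depth. The fit without the low-count filter gave a log2 fold change of 0.0044 with a wide interval (-2.01 to 2.01, edgeR adjusted p = 0.998). The limit given for this fit under Il1b holds here too.

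**Figure D3:**
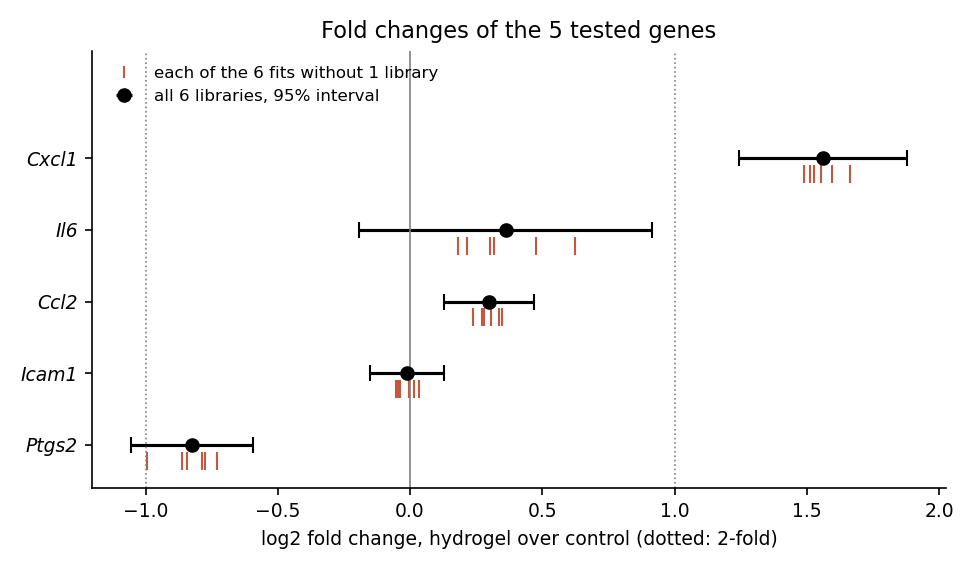
Log2 fold change of the 5 tested genes, hydrogel over control, with 95% intervals from edgeR (black) and the 6 estimates made without 1 library each (red ticks); dotted lines mark 2-fold. The Cxcl1 interval (1.24 to 1.88) lies past 2-fold, the Ptgs2 interval (-1.05 to -0.59) includes it, and the Il6 ticks spread most, from 0.18 to 0.62.

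Levels of different genes were compared per gene length, on the FPKM scale. In controls Ccl2 was the most abundant at 27.2 ± 2.08 FPKM (SD, n = 3). It was followed by Icam1 at 14.1 ± 0.63, Ptgs2 at 5.17 ± 0.30, Cxcl1 at 3.201 ± 0.13 and Il6 at 1.15 ± 0.14 FPKM. Vcam1 at 0.034 ± 0.0068 and Il1b at 0.031 ± 0.0094 FPKM came last. Neighbours in this order did not overlap, except for Vcam1 and Il1b. With hydrogel Ccl2 stood at 32.9 ± 1.62 FPKM and Icam1 at 13.7 ± 0.89 FPKM. Cxcl1, at 9.29 ± 1.30 FPKM, had passed Ptgs2, at 2.83 ± 0.48 FPKM, in all 3 libraries. Il6 stayed behind Ptgs2, at 1.45 ± 0.55 FPKM, with its highest library (1.84) below the lowest of Ptgs2 (2.44). Il1b, at 0.082 ± 0.041, and Vcam1, at 0.033 ± 0.029 FPKM, again overlapped. Ccl2 ranked at the 90.4th percentile of mean FPKM among the 21162 genes with a count, and Vcam1 at the 15.4th.

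**Figure D4:**
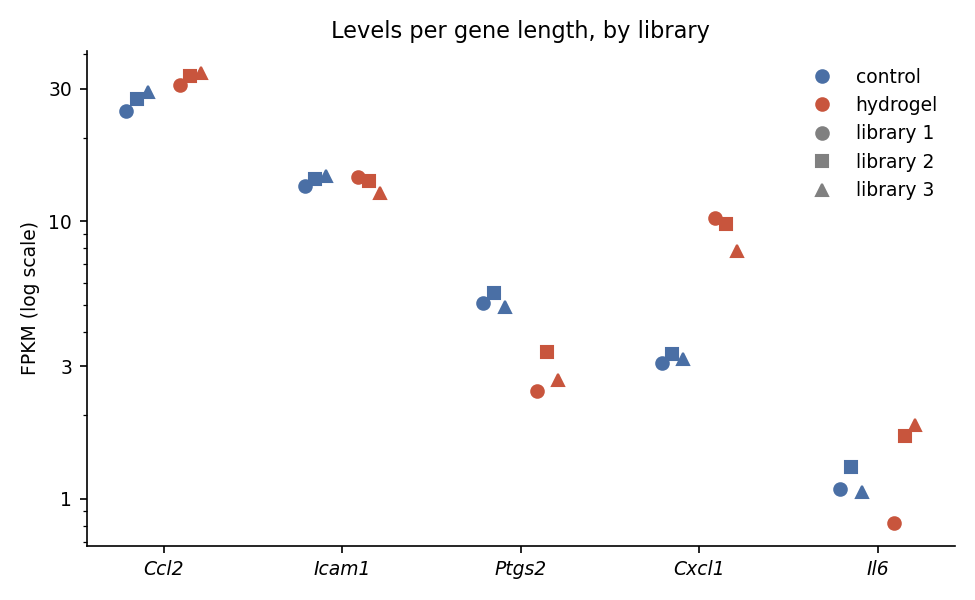
Deposited FPKM of the 5 tested genes in each library on a log axis, ordered by control mean; blue is control, red is hydrogel, and symbols are libraries 1, 2 and 3. Cxcl1 with hydrogel (7.81 to 10.3 FPKM) lies above Ptgs2 with hydrogel (2.44 to 3.37 FPKM), the reverse of their order in controls.

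The libraries of the hydrogel group did not rank alike across the genes. Hydrogel library 1 had the highest Cxcl1 of all 6 libraries and the lowest Ptgs2, Il6 and Vcam1. For Vcam1 this rests on 0 reads of a gene that was barely detected in any library. Hydrogel library 3 had the lowest Cxcl1 of its group together with the highest Ccl2 and Il6. For Cxcl1, Ptgs2 and Il6 the controls were closer to each other. The highest control stood at 1.09 times the lowest for Cxcl1, 1.12 times for Ptgs2 and 1.23 times for Il6. In the hydrogel group these values were 1.31, 1.39 and 2.26. For Ccl2 the order was reversed, at 1.18 times in the controls and 1.10 times with hydrogel. Icam1 was similar in both groups, at 1.11 times in the controls and 1.13 times with hydrogel. Whether the distance of hydrogel library 1 on the first principal component has a part in these values was not tested.

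**Figure D5:**
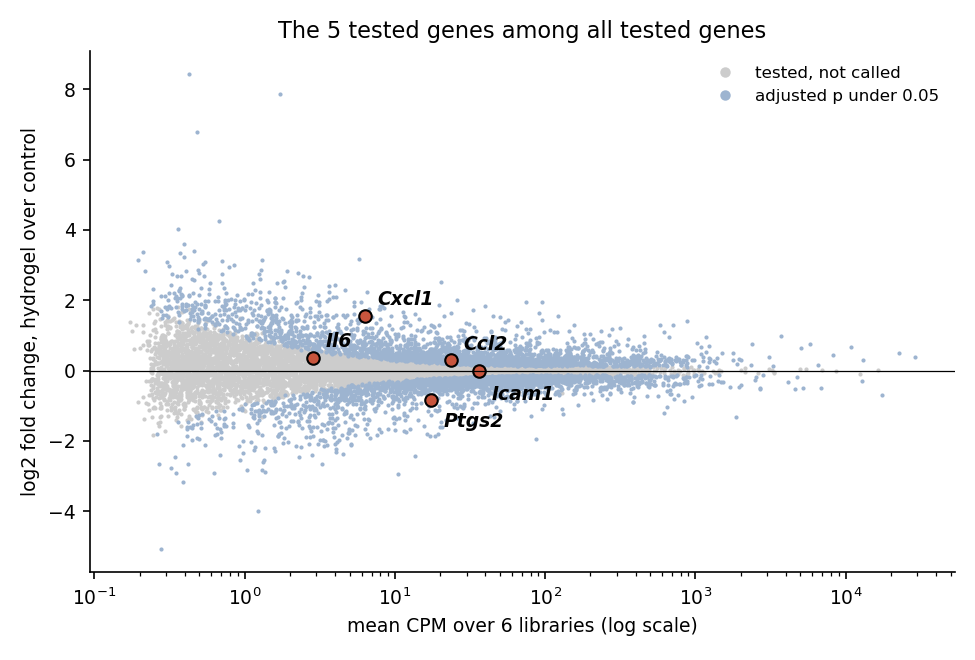
Log2 fold change (hydrogel over control) against mean CPM on a log axis for all 14715 tested genes; blue points are called at an adjusted p under 0.05, grey points are not, and the 5 tested inflammatory genes are marked in red. Cxcl1 lies near the upper edge of genes of its abundance, Ptgs2 in the lower part, Ccl2 and Il6 a little above 0 and Icam1 at 0.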

How the data were processed

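RNA sequencing of 6 rat libraries was analysed. The authors deposited raw counts per gene and, per library, FPKM values, per the file headers. The aligner, counting tool and strand setting are not given in the sources used here, so reads of overlapping genes or close paralogs may be shared. Identifiers carry the Ensembl rat prefix, while mouse builds (GRCm38, mm10) stand in the submitters' processing notes, so no gene coordinates are taken from the files. The files pair no identifier with a name. Pathway genes and cell type markers listed by symbol were therefore not analysed here.

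The main test was the quasi-likelihood F test of edgeR 4.0.16 (R 4.3.3) on the counts of all genes kept by filterByExpr (minimum count 10), with TMM scaling and Benjamini-Hochberg adjustment over all 14715 tested genes. Standard errors were derived from the F statistic. CPM values are TMM-scaled. Alternatives were DESeq2 1.42.0, other scalings and filters, a robust fit, a replicate block, limma 3.58.1 on log2 FPKM, thinning, other thresholds and leaving out libraries. The test was checked on simulated counts. Libraries of a group differed by more than counting noise (chi-square per degree of freedom 6.17 to 16.5). Each library was entered as 1 replicate. This spread does not show that the libraries came from separate animals or cultures.

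The members and lists were chosen with earlier results of these data known. All members were named. The 2 genes most like the most abundant called member were chosen by Euclidean distance of centred log2 CPM (prior count 2). The read ratios within libraries were chosen after their values were seen.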

Additional observations from a re-analysis of the deposited data

How the results depend on the processing

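The counts of calls were recomputed under the other settings, and 54 of 63 stayed within 1.5 times the reported ones. One of the 2 inflammatory genes called higher, Ccl2, was lost with limma on log2(FPKM + 1) without a filter and in libraries 1 and 3 of each group alone, leaving 1 higher. With a fold limit of 2, at an adjusted or an unadjusted p under 0.05, 1 gene was higher and 0 lower. Over all genes, 5079 were called, 2565 with limma on log2(FPKM + 1) and no filter, 843 with an adjusted p and over 2-fold, and 974 with an unadjusted p and over 2-fold. The unfiltered limma fit tested 30452 genes, of which 21162 had a count in any library. For Ccl2 it gave the same log2 fold change, 0.27, as the filtered limma fit on log2(FPKM + 1), where Ccl2 was called (limma adjusted p = 0.0181). The cause of the drop in calls was not tested. Leaving out 1 library gave 2 to 3 genes higher, 1 lower and 3975 to 4695 called in all. The third gene was Il6, without hydrogel library 1.

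Cxcl1 and Ptgs2 kept direction and call in the 19 alternatives run on each, with log2 fold changes from 1.28 to 1.66 and from -0.995 to -0.69. Ccl2 kept its direction in 19 and its call in 17. Il6 kept its direction in 19 and was called in 1. Icam1 was called in none, at adjusted p from 0.626 to 1, and changed sign in 3. A replicate block on the sample number left 2 of the genes higher and 1 lower, with 5246 genes called in all. The deviations of same-numbered libraries correlated at only 0.022, 0.051 and 0.013, and the labels name no shared animal or day, so the numbers were not taken as pairs. Leaving out libraries for the read ratios was chosen after seeing the data. Depth limits Il1b and Vcam1, where 3 counts correspond to 0.0318 to 0.0989 CPM.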
